A study of Mus musculus with 10 samples.

Results

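The early growth response genes Egr1, Egr2, Egr3 and Egr4 and the genes of their corepressors, Nab1 and Nab2, were examined for accessible chromatin in mouse fibroblasts. All listed accessible sites were taken that overlapped the body of any of the 6 genes or the 150 kb on either side of it (mm10). There were 152 such sites among the 153924 of the whole list. By locus, 36 lay around Egr1, 2 around Egr2, 32 around Egr3, 25 around Egr4, 16 around Nab1 and 41 around Nab2. A site within 1 kb of an annotated transcription start site (TSS) was listed for 5 of the 6 genes, whereas Egr2 had 0.

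The sites were found by ATAC-seq, in which the transposase Tn5 cuts open chromatin and the released fragments are sequenced. The cells were iMEF, immortalized mouse embryo fibroblasts, in which exon 4 of the endogenous Ash2l gene had been deleted and a lentivirus supplied human ASH2L fused to an FKBP12F36V tag. ASH2L is needed by all KMT2 enzymes to methylate histone H3 at lysine 4, and dTAG links the tag to the E3 ligase subunit Cereblon so that the fusion protein is degraded. There were 5 groups of 2 replicates each, which were cells without dTAG and cells treated with dTAG for 30 min, 4 h, 8 h and 24 h. All of them, the cells without dTAG included, carried the deletion and the fusion, and according to the study's methods the ATAC-seq cells were an individual clone established by limiting dilution. The list pools all 10 libraries and gives positions only. It therefore shows where chromatin was accessible in any of the groups, and holds no level per group, no replicate error and no depth.

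EGR proteins are zinc finger transcription factors that bind GC-rich DNA. Their genes are immediate early genes. Growth factors and serum switch them on within minutes through ERK signalling, which acts on ternary complex factors bound together with SRF at CArG boxes in the promoters. NAB1 and NAB2 have no DNA-binding domain of their own. They bind a repression domain of EGR1, EGR2 and EGR3, and NAB2 recruits the chromatin remodeller CHD4 of the NuRD complex. EGR proteins induce NAB2, which closes a negative feedback loop.

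A site at a TSS was thus listed for Egr1, Egr3, Egr4, Nab1 and Nab2, compared to 70.8% of 21938 protein-coding genes. In 4 of the 6 genes, Egr1, Egr4, Nab1 and Nab2, a site covered the reference start itself, meaning the start of the transcript that RefSeq selects for the gene. Of all coding genes with such a start, 63.5% were covered. Sites in the gene body were listed for the same 4 genes, and for 77.1% of coding genes. With 6 genes, these counts describe the loci and allow no statement on the family against other genes. The map of all 6 windows shows how the sites were distributed.

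**Figure D1:**
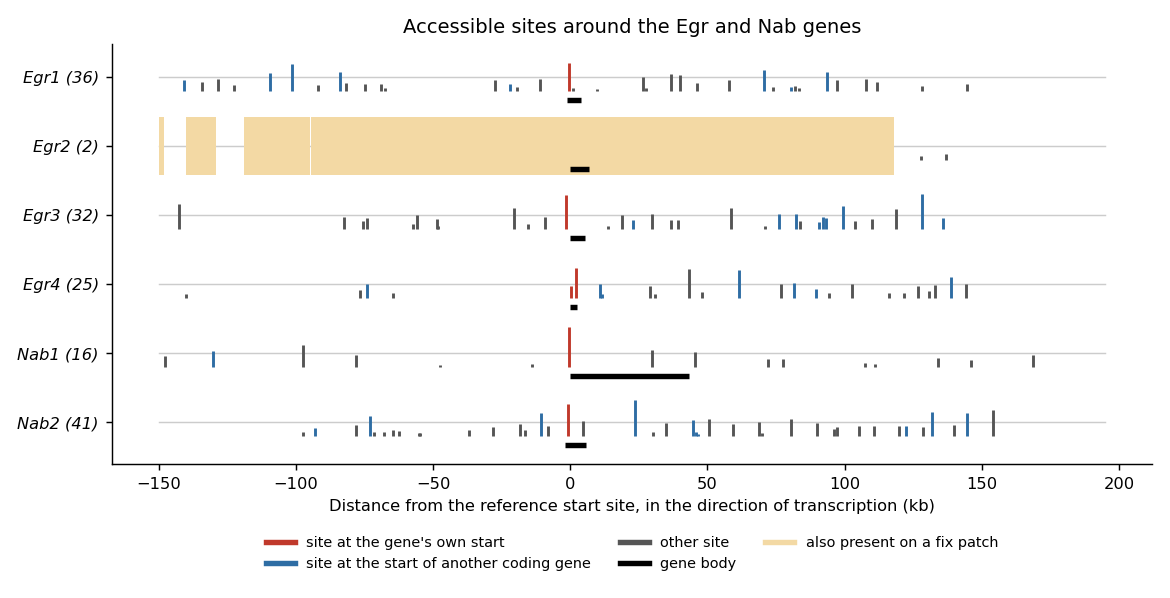
Sites in the 150 kb windows, by distance from the reference start in kb, with transcription to the right. Each vertical line is a site, its height proportional to its width (the tallest is the 3104 bp site of Nab1), and the number after each gene is its count of sites. Sites crowd around Nab2 (41) and Egr1 (36), while Egr2 has 2, both beyond the shaded stretch that is also present on a fix patch of the assembly.

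Egr1, the best studied of the family and a sensor of growth signals, lies on chromosome 18 from 34859823 to 34864984, on the plus strand (ENSMUSG00000038418.7). Its promoter site spanned 2161 bp, from 34859691 to 34861851. Relative to the reference start at 34861207, taken as position 0 with negative positions upstream, it ran from -1516 to 644. It covered the noncoding part of the first exon and 298 bp of coding sequence. Among 20938 sites at coding TSSs, with a median width of 1180 bp and quartiles of 688 and 1571 bp, 9.31% were 2000 bp or wider, so this was a wide site. A second site of 200 bp lay in the intron at 1045 to 1244. The nearest other site upstream was 10620 bp from the start.

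The Egr1 promoter site contained 5 matches to the CArG box, the binding sequence of SRF. They formed 2 clusters, with 3 matches between -407 and -344 and 2 between -105 and -74. Of 20278 windows of 1 kb on either side of a reference start, 9.18% held a CArG box, and 1 held 5 or more, which was that of Egr1. The site also held 2 matches to the EGR consensus (GCGTGGGCG or GCGGGGGCG, on either strand), at -601 to -593 and, in coding sequence, at 484 to 492. Both read GCGGGGGCG. No match to CRE (TGACGTCA), ETS (CCGGAAGT), AP-1 (TGACTCA, or the same with G as the middle base) or the TATA box (TATAAA) was found within 1 kb of the start, which says only that these letters were not present.

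Egr3, which acts in muscle spindles, neurons and lymphocytes, lies on chromosome 14 from 70077203 to 70082614, on the plus strand (ENSMUSG00000033730.4). Its site was wide, with 2645 bp, but was displaced upstream. It extended from 70074378 to 70077022, or from -2939 to -295 relative to the reference start at 70077317. Of the 4 GENCODE and 2 RefSeq starts of the gene, 0 were covered, although 3 and 2, respectively, lay within 1 kb of the site. No site was listed in the gene body, and the next site downstream began at 13648. The Egr3 site contained 2 CArG boxes, at -2446 to -2437 and at -474 to -465, and 2 EGR matches, at -2226 to -2218 and at -1711 to -1703, both reading GCGTGGGCG. Thus the Egr3 start was counted as accessible because of a site that ended 295 bp before it. When the middle of a site had to fall within 1 kb of a TSS, Egr3 had none.

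Egr4 showed the opposite arrangement. This gene, which is best known from neurons and the germ line, has 2 exons and lies on chromosome 6 from 85511121 to 85513589, on the minus strand (ENSMUSG00000071341.4). A site of 930 bp, from 85512962 to 85513891, covered the start and ran from -302 to 627. After a gap of 225 bp, a second site of 2313 bp, from 85510424 to 85512736, ran from 853 to 3165 and thus beyond the end of the gene. Together they covered 90.9% of the gene body and 1227 of 1434 coding bases, whereas sites covered 43.2% of the body of Egr1, 43.7% of Nab2, 6.25% of Nab1 and 0% of Egr3 and Egr2. The wider of the Egr4 sites thus lay over the second exon and not over the promoter. Upstream, the next site was 64546 bp away.

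The site at the Egr4 start held 1 EGR match, located in coding sequence of the first exon at 254 to 262. It is shown within 29 bases read in the direction of transcription (chr6:85513317-85513345, minus strand, GRCm38), with the match in capitals, because a match in coding sequence of an accessible first exon was found, besides Egr4, only for Egr1 among the 6 genes. It appears here as its reverse complement.
Egr4: ccgaaggctgCGCCCACGCcagccccgag
The second, wider site of Egr4 held 0 EGR matches, and no CArG box was found in either.

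Egr2 is required for the segmentation of the hindbrain and for myelination by Schwann cells. It lies on chromosome 10 from 67535475 to 67542188, on the plus strand (ENSMUSG00000037868.15). None of its 6 GENCODE or 10 RefSeq starts had a site within 1 kb, and 0 sites were listed in its body. The 2 sites in its window were a site of 342 bp at 67663102 to 67663443, which began 127603 bp downstream of the reference start, and a site of 435 bp at 67672335 to 67672769. This amounted to 0.652 sites per 100 kb, compared to a median of 9.94 for the coding genes of chromosome 10.

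The sequence around Egr2 is represented more than once in the assembly. A fix patch, which is a corrected version of a stretch of chromosome that is released beside it, aligned in 5 blocks to chr10:67228314-67653670 (GRCm38.p6). The block that holds Egr2 was 99.95% identical over 202 kb, and 100% of the 8665 words of 50 bases in the gene and 1 kb on either side were found unchanged in the patch. Across these 425 kb, 0 sites were listed. The list resumed 9431 bp beyond the patch, and the last site before it ended 3788 bp away. In the 38.5 kb of the Egr2 window beyond the patch, 2 sites were listed, or 51.9 per Mb. The coding genes Nrbf2 and Ado, whose 5' ends lie in the patched stretch, also had 0 sites at their TSSs.

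**Figure D2:**
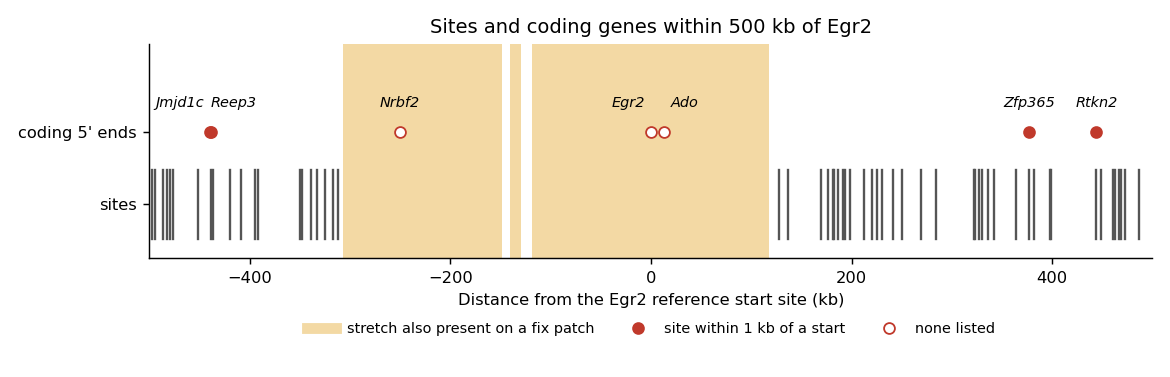
Sites (grey lines) and 5' ends of coding genes (circles, filled where a site lies within 1 kb of a TSS) within 500 kb of the Egr2 reference start, by distance in kb. Shaded blocks are also present on the fix patch: no site falls between -310974 and 127603 bp, and Nrbf2, Egr2 and Ado, within it, have open circles, while the 4 coding genes outside have filled ones.

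The same was seen elsewhere. In 136 blocks of 64 fix patches, covering 20.6 Mb of the chromosomes, the list held 25 sites or 1.21 per Mb, compared to 58.5 per sequenced Mb in the remainder. Of 256 coding genes with a TSS in such blocks, 8 (3.12%) had a site within 1 kb, and of 21682 genes outside, 15522 (71.6%). Reads that match more than 1 place equally well are commonly discarded by filters on mapping quality. The list also names 242 sites on 47 sequences outside the chromosomes, so reads had been aligned to more than the chromosomes. The study's methods name the reference as GRCm38.p6, the release that includes this patch. The names of the 47 sequences were not paired with the patches here, so these sequences are not known to include a patch. The part of the patch in the missing Egr2 site was not tested. Whether the Egr2 promoter was accessible in these cells cannot be told from this list. By the same alignments, none of the other 5 genes had a base of its window on a fix patch. Other sequences of the assembly outside the chromosomes were not aligned.

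The Egr2 start was GC-rich compared to coding starts in general, but less so than the other 5. Over 500 bp on either side of the reference start, Egr2 had a GC content of 62.8% and an observed to expected CpG ratio of 0.68. The other 5 genes ranged from 64.0% (Egr3) to 74.8% (Nab1) and from 0.714 (Egr1) to 0.938 (Nab1). The medians over 20278 coding starts were 56.2% and 0.606. The promoter of the reference start is given from RefSeq (GRCm38.p6, chr10:67535249-67535548, plus strand, from 250 bases upstream of the start), with 4 matches to the SP1 sequence GGGCGG, on either strand, in capitals, to show the start without a listed site.
Egr2: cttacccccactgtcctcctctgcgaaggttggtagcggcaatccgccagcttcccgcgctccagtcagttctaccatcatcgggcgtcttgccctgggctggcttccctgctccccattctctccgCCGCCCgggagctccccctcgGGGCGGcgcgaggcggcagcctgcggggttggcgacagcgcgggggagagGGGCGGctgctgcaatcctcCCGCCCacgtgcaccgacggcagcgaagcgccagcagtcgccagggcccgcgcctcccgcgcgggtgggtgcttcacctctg
Of 32851 promoters of this length in the RefSeq table, 35.7% held an SP1 match. Within 1 kb of the Egr2 start, 0 EGR matches and 0 CArG boxes were found.

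Nab1 had the widest site of all 6 loci. The gene lies on chromosome 1 from 52457294 to 52500679, on the minus strand (ENSMUSG00000002881.14), and is the longest of the group with 43386 bp. Its promoter site spanned 3104 bp, from 52499310 to 52502413, and ran from -1965 to 1138 relative to the reference start at 52500448. All 4 RefSeq starts were covered, as were 3 of the 5 GENCODE starts, while the other 2, which lie inside the gene at 9712 and 33391, had no site within 1 kb. A further site of 1342 bp was located in an intron at 28968 to 30309. Upstream, the nearest other site was 13869 bp away. The Nab1 site held 4 EGR matches, of which 3 lay just upstream of the start, at -141 to -133, -109 to -101 and -38 to -30, and 1 downstream of it at 158 to 166. Of the 20278 start windows, 28 held 4 or more, Nab1 included. It also held 15 SP1 matches within 1 kb of the start, compared to a median of 2.00, although some of these letters are shared with EGR matches.

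The RefSeq promoter of Nab1 (GRCm38.p6, chr1:52500399-52500698, minus strand, from 250 bases upstream of the start) is given because it carries these 3 upstream EGR matches, shown in capitals. The match closest to the 5' end is read on the opposite strand.
Nab1: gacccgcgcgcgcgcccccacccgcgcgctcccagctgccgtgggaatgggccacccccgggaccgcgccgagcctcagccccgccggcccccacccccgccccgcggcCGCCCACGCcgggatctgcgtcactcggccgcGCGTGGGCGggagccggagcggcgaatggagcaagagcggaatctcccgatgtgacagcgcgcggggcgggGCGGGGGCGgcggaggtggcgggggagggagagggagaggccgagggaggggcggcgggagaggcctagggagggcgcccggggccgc
An EGR match was present in 3.47% of the 32851 promoters in the table, and 12 promoters (0.0365%) held 3 or more.

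Nab2, the EGR-induced corepressor, lies on chromosome 10 from 127660918 to 127668568, on the minus strand (ENSMUSG00000025402.12). Its promoter site spanned 2506 bp, from 127666405 to 127668910. It ran from -2207 to 298 relative to the reference start at 127666703 and therefore lay mainly upstream. Of the 4 GENCODE starts, 3 were covered, including an upstream start at -1865. The site was also within 1 kb of an annotated start of the neighbouring gene Nemp1. A second site of 1179 bp, from 127661650 to 127662828, covered the 3' part of the gene at 3875 to 5053. The promoter site held 2 EGR matches, at -271 to -263 and at -2149 to -2141. The match nearer to the start is shown in the 250 bases from -300 to -51 (GRCm38, chr10:127666754-127667003, minus strand), in capitals, since Nab2 is a known target of EGR proteins.
Nab2: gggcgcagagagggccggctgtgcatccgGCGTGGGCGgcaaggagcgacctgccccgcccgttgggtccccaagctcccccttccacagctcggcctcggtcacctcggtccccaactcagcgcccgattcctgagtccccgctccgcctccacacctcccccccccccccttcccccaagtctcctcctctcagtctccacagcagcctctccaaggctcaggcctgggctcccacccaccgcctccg
No CArG box was found within 1 kb of the start of Nab1 or Nab2.

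**Figure D3:**
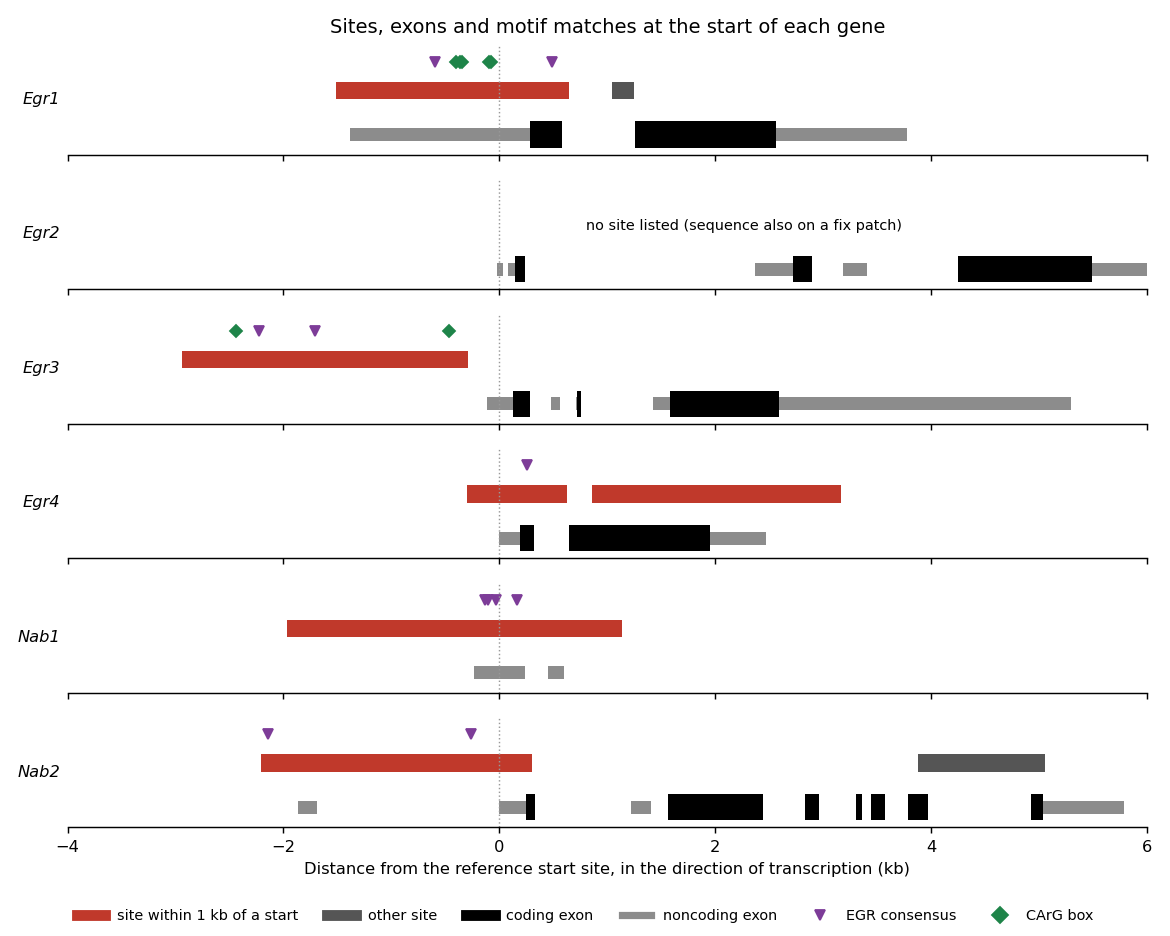
Sites, exons and motif matches from 4 kb upstream to 6 kb downstream of the reference start (dotted line), by distance in kb. Red bars are sites within 1 kb of a TSS, grey bars above the exons other sites, and triangles and diamonds are EGR and CArG matches inside the red sites. Egr1 has 5 CArG boxes upstream of its start, the Egr3 site ends 295 bp before the start, the Egr4 sites cover most of the gene, and Egr2 has no site.

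The EGR consensus was found in a site at the start of each of the 5 genes, although for Egr3 both matches lay more than 1 kb upstream and 0 lay within 1 kb of the start, as for Egr2. Together, the 6 sites at the starts of these 5 genes contained 11 matches, 6 reading GCGTGGGCG and 5 reading GCGGGGGCG, and 5 of the 6 sites held at least 1. Counting only 1 kb on either side of the outermost 5' end gave 7 matches, and the middle 200 bp of the sites 2. Over all sites at coding TSSs, the share was 11.6%. Wide sites contain more matches, and 5 of the 6 sites were 2000 bp or wider. Among the 1950 sites of that width at coding TSSs, 33.4% held an EGR match, 8.56% held 2 or more and 0.872% held 4 or more. For sites of 800 to 1100 bp, the range that includes the site at the Egr4 start, the share was 5.59%. CArG boxes were found in 2 of the 6 sites, those of Egr1 and Egr3, and in 10.8% of the sites of 2000 bp or wider, while 2 or more were found in 0.718% of them. The match is a sequence feature, and binding of EGR proteins or SRF was not measured by these data.

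By width, 4 of the 5 genes had promoter sites near the upper end of the range. Among the 20938 sites at coding TSSs, the site of Nab1 stood at percentile 99.5, that of Egr3 at 98.3, that of Nab2 at 97.6 and that of Egr1 at 93.7. The 930 bp site over the Egr4 start was narrower than the median (percentile 35.9), while the 2313 bp site in its body stood at percentile 95.9. Each width is a single value from the pooled list, so differences among the 4 wide sites carry no error.

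**Figure D4:**
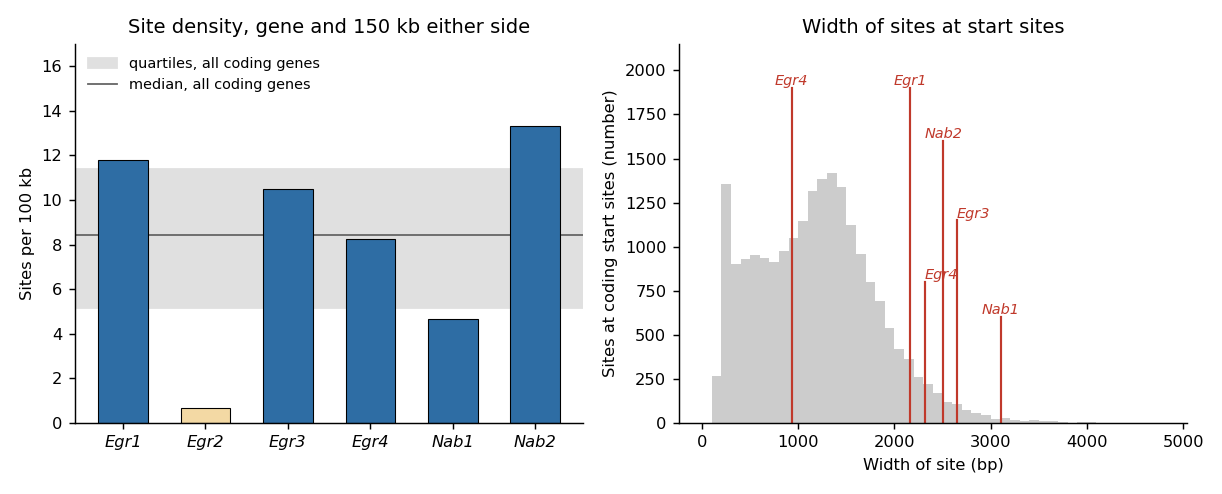
Left, sites per 100 kb in each gene and 150 kb on either side, with the median (8.43) and quartiles (5.15 and 11.4) of 21938 coding genes; the value of Egr2 (0.652, pale) includes the stretch shared with a fix patch. Right, number of sites at coding TSSs by width in bp (grey) with the 6 sites at the starts of Egr1, Egr3, Egr4, Nab1 and Nab2 (red); all but 1 of the red lines lie beyond 2000 bp.

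The density of sites around the genes also varied. Nab2 had 13.3 sites per 100 kb and Egr1 11.8, both above the upper quartile of coding genes (11.4). Egr3 had 10.5 and Egr4 8.27, within the quartiles, and Nab1 4.66, below the lower quartile (5.15). Because chromosome 10 is densely covered, with an upper quartile of 15.7, Nab2 stood at percentile 69.3 among its neighbours on the chromosome but 87.4 among all genes. Egr1 reached percentile 91.3 on chromosome 18 and 78.0 among all genes. Neither rank carries a test, since each locus is a single window.

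Many sites in the windows belonged to neighbouring genes, but the 2 around Egr2 and 12 of the 16 around Nab1 lay between coding genes. Of the 152 sites, 41 (27.0%) lay at a coding TSS, 6 at the genes themselves and 35 at 28 other coding genes only, compared to 13.6% of all sites on the chromosomes. A further 56 sites (36.8%) were intronic, 6 (3.95%) exonic and 49 (32.2%) lay between coding genes, and the list as a whole had 37.2%, 2.69% and 46.4%. Because the windows were drawn around coding genes, the whole list is not a matched background for these shares. The widest site in the Egr3 window, with 2676 bp, lay at Sorbs3, which encodes the adaptor vinexin, and that in the Nab2 window, with 2793 bp, lay at Stat6, a transcription factor of interleukin signalling whose gene converges with Nab2. For Egr1, Egr4 and Nab1, the widest site in the window was the gene's own.

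Other coding genes with TSS sites near Egr1 were Gfra3, Cdc25c, Fam53c, Kdm3b, Reep2, Etf1 and Hspa9. Around Egr3 they were Bin3, Ccar2, 9930012K11Rik, Pdlim2 and Sorbs3, and around Egr4 Rab11fip5, Noto, Smyd5, Pradc1, Cct7, Fbxo41 and Alms1. Nab1 had only Nemp2, whereas Nab2 had Shmt2, Nxph4, Lrp1, Stat6, Nemp1, Zbtb39, Rdh1 and Rdh16f1. The longest stretch without a site was 39542 bp in the Egr1 window, 58838 bp for Egr3, 64243 bp for Egr4, 33481 bp for Nab1 and 54086 bp for Nab2. The stretch at Egr4 began directly upstream of its promoter site, and the 277627 bp at Egr2 largely coincided with the patch.

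Sites in the windows were distributed over both sides of the genes, with 54 upstream, 8 in gene bodies and 90 downstream. The sides differed most for Egr4, with 4 sites upstream and 19 downstream, and for Egr3, with 12 and 20. Egr1 (16 and 18), Nab1 (6 and 8) and Nab2 (16 and 23) were more even. The median width was 787 bp, compared to 619 bp in the whole list. Matches to AP-1, the binding sequence of Fos and Jun, were found in 44 of the 152 sites (28.9%), and in 29.4% of all sites. The CTCF consensus was found in 6 (3.95%, against 4.49%) and the CArG box in 7 (4.61%, against 4.42%). An EGR match was found in 17 (11.2%, against 1.88%). By location, these were 5 of the 6 sites at the genes' own starts, 8 of the 35 at other coding TSSs (22.9%, against 11.6% of all sites at coding TSSs) and 4 of the 111 elsewhere (3.60%, against 0.338%). Those 4 sites were 1110, 1179, 1686 and 1968 bp wide, and the 1179 bp site lay inside Nab2. Wide sites contain more matches, and the shares by location were not compared within classes of width or GC content. None of these shares carries a test.

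For the pathway, lists of genes by role were examined with the same window of 1 kb around TSSs. Of the 62 genes, 60 (96.8%) had a site, compared to 70.8% of coding genes. All 11 upstream regulators, which are SRF and ternary complex factors with their coactivators, the ERK cascade and Creb1, had a site, the widest at Elk3 with 2665 bp. All 21 other immediate early genes had a site, and 10 of them had 2 or more. Taking only the widest site of each gene, the median was 1743 bp, which is not comparable to the median over all single sites. The widest was at Klf10 with 3045 bp. This group includes Fos, Jun and Myc, which respond to the same signals as Egr1. Genes of NuRD subunits, together with those of coactivators, Sp1 and the EGR relative Wt1, all had a site (14 of 14). The widest was at Chd4, the NAB2-bound remodeller, with 2756 bp.

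Known EGR targets of fibroblasts, among them growth factor and matrix genes, all had a site (9 of 9), with the widest at Pdgfa, a growth factor for mesenchymal cells, with 3602 bp. Of the targets in other lineages, 5 of 7 had a site. Mag, a myelin protein of Schwann cells and oligodendrocytes, and Fasl, a death ligand of T cells, had none. The widest in this list was at Prx, a myelin protein, with 2110 bp. None of these 62 genes had a TSS on a fix patch, so Egr2 was the only gene of the family and its lists to which this applied. No test of the lists against other genes was made.

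The label of the cells was compared with marker genes. All 8 fibroblast markers, among them Col1a1, Vim, Thy1 and Pdgfra, had a TSS site. Of the markers of other cell types, 4 of 4 for neurons, 3 of 4 for Schwann cells, 1 of 4 for T cells and 3 of 4 for epithelium had a site as well. A listed site at a TSS thus did not separate fibroblast markers from those of neurons, and says little of whether a gene was transcribed.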

How the data were processed

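ATAC-seq reads had been trimmed by the authors, per their methods, then aligned with BWA to mm10, filtered after ENCODE recommendations and, with replicates merged, used to call peaks with MACS. The submitters' processing notes name MACS2. The deposited list gives chromosome, start and end of all sites over all 10 libraries, as positions with no counts or scores. The methods name the reference as GRCm38.p6 of GENCODE release M25, while tool versions, thresholds and the sequence file chosen from that release were not given in the sources used here. Merging replicates, depth and mapping filters could change the number and edges of sites. Accessibility per library was not analysed here.

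Starts were read as counted from 0 and are printed from 1. Genes came from GENCODE vM21 and RefSeq on GRCm38.p6, the build of the list. A site counted when at least 1 bp overlapped the window. Motifs were searched as exact matches on both strands. Percentiles count values below plus tied values weighted equally on either side. Fix patches were aligned to their chromosomes with minimap2 2.31-r1302, keeping primary alignments of at least 5 kb with mapping quality of at least 30. RefSeq promoters matched 4 of the 6 genes, and Egr1 and Egr3 had no entry. Counts used Python 3.11.15 and NumPy 2.4.6, with figures by Matplotlib 3.10.9. On simulated data, 200 of 200 sites planted at TSSs among 21938 genes were recovered, as were 250 of 250 planted EGR matches. The sites were planted inside the searched window, and the matches, all GCGTGGGCG on either strand, in sequence of only A and T. This checked the code and not its accuracy on real promoters.

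The genes and lists were chosen with earlier results of these data known. Described are, in each window, the sites nearest to the start, the nearest on either side, the widest and coding genes with TSS sites, and in each list the genes without a site (or, where more than 50% lack it, those with) and the gene with the widest. No test was made, since the list carries no samples. Alternatives were other windows, annotations, site definitions and motif choices.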

Additional observations from a re-analysis of the deposited data

How the results depend on the processing

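The 5 genes with a site at a TSS remained 5 with windows of 500 bp or 2 kb, with the outermost 5' end, with sites of median width or more, with neighbouring sites merged and with RefSeq. Egr2 was without a site in each, but none of these alternatives could have given it one. Its nearest listed site lay 127603 bp from the reference start, beyond the stretch shared with the fix patch. The count was 4, without Egr3, when the middle of the site had to lie in the window or, as chosen after seeing the data, when the reference start had to be covered. Leaving out genes on sequence shared with a fix patch, also chosen after seeing the data, left 5 of the 5 remaining genes. The 152 sites in the windows became 54 with 50 kb on either side, 318 with 300 kb and 94 with sites of median width or more, as the construction of these windows implies. They were 152 with middles or merged sites. The 11 EGR matches became 6 with GCGTGGGCG alone, 2 in the middle 200 bp of the sites and 7 within 1 kb of the outermost 5' end. Both of these stretches search fewer bases. The outermost 5' end also lies at -1384 for Egr1 and at -1865 for Nab2. Its window therefore leaves out the Egr1 match at 484 to 492 and the Nab2 match at -271 to -263. Of the 62 pathway genes, 57 to 60 had a site. Besides Mag and Fasl, the genes Cdkn1a, Pmp22 and Prx had none with the outermost 5' end. With sites of median width or more, Ccnd1 and Lhb had none. Merging changed none of the 5 promoter widths. Leaving out replicates was not run, since the list pools them. No paired analysis was possible because the result comes from no test and the list holds no values per replicate. Depth is unknown, so a region without a site may have been below the calling threshold.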
